A study of Rattus norvegicus with 11 samples.

Results

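The genes described here are 36 genes of antioxidant defence: the transcription factor Nrf2 (gene Nfe2l2), its inhibitor Keap1, and enzymes and carriers that make, recycle or use glutathione and thioredoxin. They were taken from a list of symbols. The only threshold on measured values was a probe well above background on 2 or more arrays. All 36 listed genes had such a probe, and they are 36 of the 25250 genes tested, of which 14352 carry a symbol. Messenger RNA was measured in the renal cortex of Sprague Dawley (SD) rats on 11 single-colour Agilent arrays. The 4 groups crossed diabetes with surgery. Control rats, and rats made diabetic with streptozotocin (STZ), which destroys pancreatic beta cells and so gives type 1 diabetes, were operated on after 4 weeks, and the cortex was taken 4 weeks after surgery. The operation was either a sham or a Roux-en-Y gastric bypass (RYGB), in which a small gastric pouch is joined directly to the jejunum. Control+Sham, DM+Sham and Control+RYGB had 3 arrays each and DM+RYGB had 2, where DM marks the diabetic rats. The labels give no age, sex or pooling of the animals and do not say that the arrays of a group come from separate rats, so the p-values may measure technical spread only. A chemically induced loss of beta cells is the only model of diabetes here, and the STZ dose and the glucose levels are not analysed here.

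Nrf2 is held in the cytosol by Keap1, which marks it for breakdown. Oxidants and electrophiles modify Keap1, and Nrf2 then reaches the nucleus and, with a small Maf partner, binds antioxidant response elements in front of its target genes, among them Nqo1, Hmox1, Gclc, Gclm, Srxn1, Txnrd1 and several glutathione transferases. Glutathione peroxidases and peroxiredoxins reduce peroxides at the cost of glutathione or thioredoxin, and glutathione reductase (Gsr) and thioredoxin reductase (Txnrd1, Txnrd2) restore these with NADPH. The proximal tubule, which makes up most of the renal cortex, is rich in mitochondria and peroxisomes, breaks down filtered glutathione at its brush border and secretes glutathione peroxidase 3 (Gpx3) into the plasma. The arrays measure RNA of whole cortex, in which fewer cells of a type and less RNA per cell cannot be told apart.

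The core letters of the antioxidant response element, TGACNNNGC, were searched on both strands of the 250 bases before each gene's start (RefSeq, build GRCr8). An entry was found for 28 of the 36 genes and not for Hmox1, Gsr, Sod3, Prdx6, Txnip, Gstt1, Fth1 and Ftl1. Counting a gene once where any of its entries held the letters, they stood before 6 of the 28 genes (21.4%) and 3027 of all 27457 genes in the table (11.0%). Of these 6, Sod2 was called in no comparison. The other 5 are shown because each was called in at least 1, as were 39.5% of all genes and 55.6% of the 36, and not in 1 direction. Being picked by their calls, they cannot show whether letters and changes go together, which was not tested. The Nrf2 targets Nqo1, Gclc and Srxn1 had no match, and bases farther from the start were not searched. The sequences run 5′ to 3′ on the gene's own strand over 100 bases, and capitals mark the element, which reads in reverse in all but Gstp1. They are Gclm at chr2:213031917-213032016 (+), Gpx2 at chr6:101230034-101230133 (-), Prdx1 at chr5:135383725-135383824 (+), Txnrd1 at chr7:22755929-22756028 (-), which is 1 of 2 entries for that gene, and Gstp1 at chr1:210769713-210769812 (-).
Gclm: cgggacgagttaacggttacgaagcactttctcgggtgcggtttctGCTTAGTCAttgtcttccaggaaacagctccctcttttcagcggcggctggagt
Gpx2: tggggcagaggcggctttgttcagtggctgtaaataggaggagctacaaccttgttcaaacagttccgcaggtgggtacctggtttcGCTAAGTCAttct
Prdx1: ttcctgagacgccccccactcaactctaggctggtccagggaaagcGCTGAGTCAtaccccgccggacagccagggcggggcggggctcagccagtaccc
Txnrd1: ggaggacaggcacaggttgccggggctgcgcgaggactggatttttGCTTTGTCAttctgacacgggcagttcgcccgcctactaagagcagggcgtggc
Gstp1: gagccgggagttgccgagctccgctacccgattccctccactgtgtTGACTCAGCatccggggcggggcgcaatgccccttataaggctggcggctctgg
In Prdx1 and Gstp1 the element reads TGACTCAGC, whose first bases are also the binding letters of AP-1, a dimer of Fos and Jun proteins. Gclm and Gpx2 were higher in both bypass groups, Prdx1 and Txnrd1 were lowest in DM+RYGB, and Gstp1 was low in DM+Sham and Control+RYGB, as given with their values further on. A match of letters is a description and not a site at which Nrf2 was measured.

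Levels are log2 of the background-subtracted signal minus the array's 75th percentile, so 0 is the 75th percentile itself, and levels of different genes are not compared. The 75th percentile lay at signals of 1541 to 4454 in the 11 arrays, 77.7% to 93.5% of 30367 probes were well above background, no spot was saturated, and the probe of each of the 36 genes was well above background on all 11 arrays. The number of arrays limits the precision. DM+Sham 2 and 3 (spread of the log2 difference 0.021, against 0.074 between repeated spots of 1 array) and Control+RYGB 2 and 3 (0.05 against 0.085) differed less than repeated spots do and each pair entered as 1 sample, leaving 3 Control+Sham samples and 2 of each other group. The 2 DM+RYGB arrays stood apart from each other (spread 0.396, against 0.104 to 0.195 for the other distinct pairs of a group), and DM+RYGB 2 carried heart muscle RNA: the summed level of 6 markers (signal over the 75th percentile) was 261, against 0.331 to 0.792 on the other 10 arrays. All 8 proximal tubule markers were well above background on every array. Their summed level was 110 to 154 in Control+Sham, 132 to 155 in DM+Sham, 226 to 292 in Control+RYGB and 67.2 to 118 in DM+RYGB. Urothelial markers (6 genes) summed to 1.93 to 2.11 in Control+Sham and to 0.191 to 0.548 elsewhere, and liver markers (4 genes, Alb among them) to 8.89 to 11.0 in Control+RYGB and 1.16 to 1.99 elsewhere.

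A gene was called where limma gave an adjusted p (Benjamini-Hochberg over all 25250 genes) under 0.05 in 1 direction under each of 3 scalings of the arrays, the 75th percentile, the median and quantile scaling. Diabetes in sham-operated rats, DM+Sham against Control+Sham, called 7 of the 36 genes (19.4%), 4 higher and 3 lower, where 12.3% of all genes tested were called, 5.87% higher and 6.45% lower. RYGB in diabetic rats, DM+RYGB against DM+Sham, called 12 (33.3%), 3 higher and 9 lower, against 21.4% of all genes, 10.4% higher and 10.9% lower. RYGB in control rats, Control+RYGB against Control+Sham, called 7 (19.4%), 5 higher and 2 lower, against 12.4% of all genes, 6.93% higher and 5.49% lower. Diabetes in bypassed rats, DM+RYGB against Control+RYGB, called 11 (30.6%), 2 higher and 9 lower, against 17.2% of all genes, 7.45% higher and 9.79% lower. The interaction, the effect of RYGB in diabetic rats minus its effect in control rats, called 10 (27.8%), 2 higher and 8 lower, against 14.6% of all genes, 6.48% higher and 8.08% lower. In all, 20 genes (55.6%) were called in at least 1 of the 5 comparisons and 16 in none, against 39.5% of all genes called in at least 1. The split of all genes into higher and lower depended on the scaling: with RYGB in diabetic rats, 10580 were higher and 2763 lower at the 75th percentile alone, 4428 and 7341 at the median and 3655 and 5822 under quantile scaling. The comparisons share groups, so a sample that lies high or low moves more than 1 of them.

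The median log2 change of the 36 genes was 0.12 for diabetes in sham rats, 0.042 for RYGB in diabetic rats, 0.406 for RYGB in control rats and -0.218 for diabetes in bypassed rats. Over all genes it was 0.026, 0.57, 0.29 and 0.27, and -0.097 to 0.036 under median and quantile scaling. In 3 of these comparisons, all with a bypass group, the fitted changes therefore include a shift that most genes share. Gpx3, the gene with the lowest value in the plot of changes by role, changed by -2.75 with RYGB in diabetic rats as fitted and by -3.31 relative to the median of all genes.

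**Figure D1:**
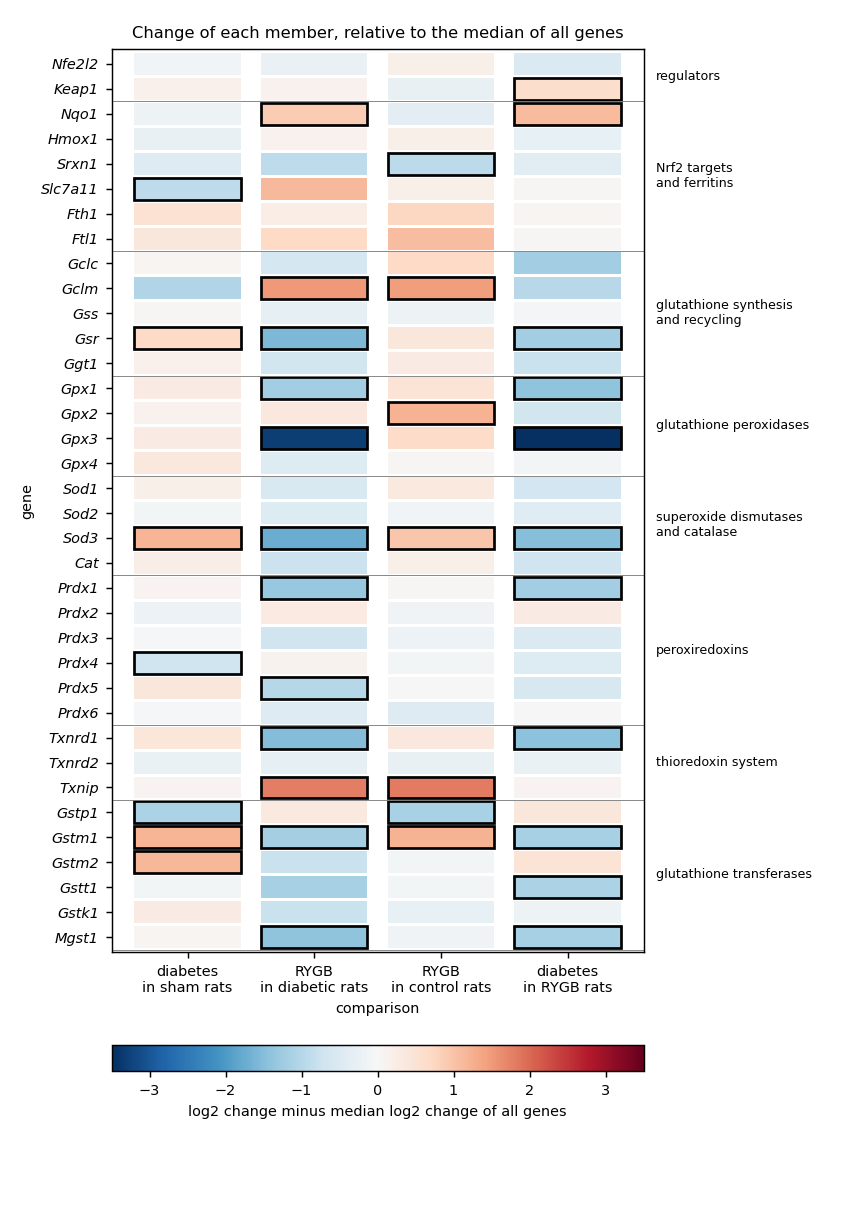
Each row is 1 of the 36 genes, grouped by role, and each column is 1 comparison. Colour gives the log2 change minus the median log2 change of all genes in that comparison (red higher, blue lower), and a black frame marks a call. Falls with a frame gather in the columns of RYGB in diabetic rats and of diabetes in RYGB rats, both of which contain DM+RYGB, and Gpx3 is the darkest of them.

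Nfe2l2 encodes Nrf2 and Keap1 its inhibitor. Neither was called for diabetes in sham rats, for RYGB in diabetic rats or for RYGB in control rats. Nfe2l2 ranged from 2.4 to 3.25 over all 11 arrays and was called in no comparison. Its Control+RYGB arrays (2.96 to 3.25) lay above both sham groups (2.4 to 2.75), and all other pairs of groups overlapped. Keap1 stood at -1.41 on all 3 Control+Sham arrays, at -1.19, -1.22 and -1.22 on DM+Sham, at -1.33, -1.4 and -1.41 on Control+RYGB and at -0.39 and -0.58 on DM+RYGB. Both DM+RYGB arrays were above all others. Keap1 rose by 0.88 (SE 0.11, adjusted p = 0.002) with diabetes in bypassed rats. Its difference between DM+RYGB and DM+Sham, 0.71 at the 75th percentile, was 0.15 relative to the median of all genes and was not called.

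Of the 6 other Nrf2 targets and ferritins, 3 (50%) were called in some comparison, against 39.5% of all genes, each in a different direction or group. Nqo1, a quinone reductase often used as a readout of Nrf2, stood at -3.25, -3.29 and -3.26 on Control+Sham, at -3.36, -3.49 and -3.52 on DM+Sham, at -3.18, -3.54 and -3.52 on Control+RYGB and at -1.86 and -2.11 on DM+RYGB. It was high in DM+RYGB alone, and the other 3 groups lay between -3.54 and -3.18. Nqo1 rose by 1.44 (SE 0.15, adjusted p = 0.0011) with RYGB in diabetic rats, 0.88 relative to the median of all genes, and by 1.37 (SE 0.15, adjusted p = 0.0014) with diabetes in bypassed rats. Srxn1, the sulfiredoxin that repairs overoxidised peroxiredoxins, was highest in Control+Sham (1.85, 1.89 and 1.67), with 1.41, 1.39 and 1.36 in DM+Sham, 1.2, 1.08 and 1.12 in Control+RYGB and 1.14 and 0.93 in DM+RYGB. It fell by 0.65 (SE 0.12, adjusted p = 0.013) with RYGB in control rats, and its other differences were not called. Slc7a11, the cystine importer that feeds glutathione synthesis, was dim (signals of 23.5 to 103), at -5.81, -6.04 and -5.44 in Control+Sham, -6.47, -6.83 and -6.81 in DM+Sham, -5.3, -5.21 and -5.23 in Control+RYGB and -5.12 and -4.76 in DM+RYGB. The DM+Sham arrays were the lowest. Slc7a11 fell by 0.88 (SE 0.21, adjusted p = 0.035) with diabetes in sham rats, while its difference of 1.7 between DM+RYGB and DM+Sham missed under quantile scaling (adjusted p = 0.056) and was not called. Hmox1, which breaks down heme, and the ferritin subunits Fth1 and Ftl1, which store iron, were called in no comparison. Hmox1 had group means of -4.0, -4.23, -3.51 and -3.52 in the order Control+Sham, DM+Sham, Control+RYGB and DM+RYGB. Ftl1 ran from 3.49 to 6.5, and its 3 Control+Sham arrays alone spanned 3.49 to 4.73.

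**Figure D2:**
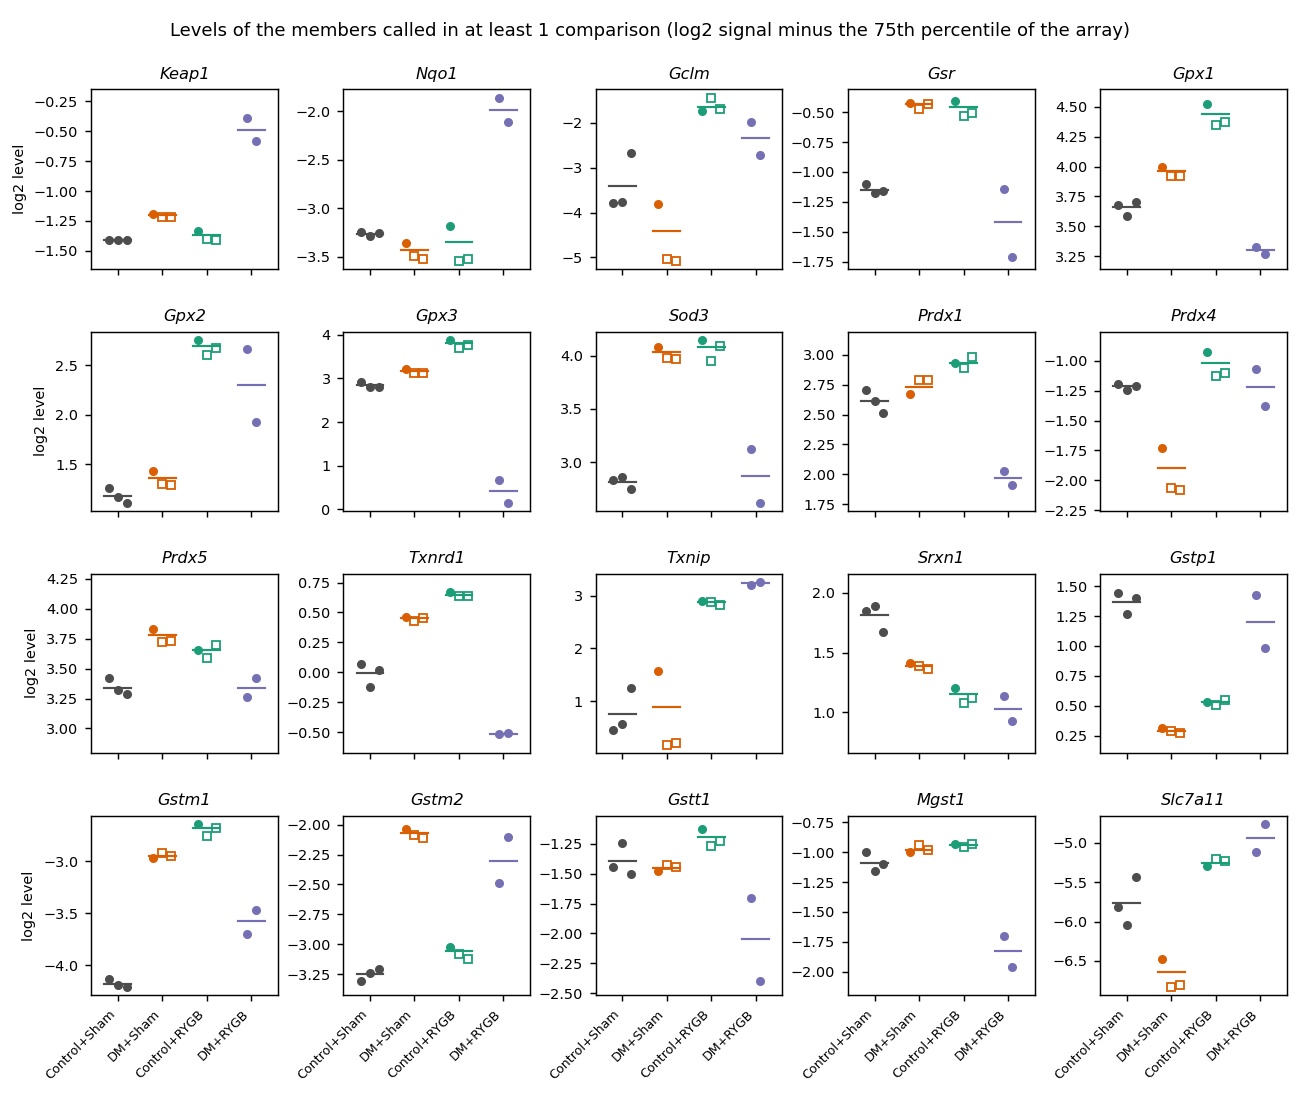
Log2 level of the 20 genes called in at least 1 comparison, 1 panel per gene, with a scale of its own in each panel. Points are arrays, open squares the arrays that were averaged in pairs, and lines the group means over samples. DM+RYGB stands alone at the bottom for Gpx3, Gpx1, Prdx1, Txnrd1, Gstt1 and Mgst1 and at the top for Nqo1, Keap1, Txnip and Slc7a11.

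Glutathione is made by glutamate-cysteine ligase, with the catalytic subunit Gclc and the modifier subunit Gclm, and by glutathione synthetase (Gss). Gclm and Gsr were the called genes of this role, in opposite directions with RYGB in diabetic rats. Gclm stood at -3.78, -3.77 and -2.68 in Control+Sham, at -3.8, -5.04 and -5.07 in DM+Sham, at -1.73, -1.44 and -1.7 in Control+RYGB and at -1.99 and -2.71 in DM+RYGB. Its element is shown above, and it was higher in the bypass groups, though Control+Sham 3 reached the level of DM+RYGB 2. It rose by 2.07 (SE 0.53, adjusted p = 0.018) with RYGB in diabetic rats and by 1.76 (SE 0.49, adjusted p = 0.04) with RYGB in control rats. Gclc was not called, with 4.03 to 4.74 in Control+Sham and 4.31 to 4.83 in DM+Sham, 5.17 to 5.76 in Control+RYGB and 4.12 to 4.91 in DM+RYGB. Whether the 2 subunits differed in their change was not tested. Gsr, which regenerates reduced glutathione with NADPH, stood at -1.1, -1.18 and -1.16 in Control+Sham, at -0.42, -0.47 and -0.43 in DM+Sham, at -0.41, -0.53 and -0.51 in Control+RYGB and at -1.14 and -1.71 in DM+RYGB. It was high in the groups with either diabetes or bypass and low in those with neither or both. Gsr rose by 0.71 (SE 0.17, adjusted p = 0.033) with diabetes in sham rats and fell by 0.99 (SE 0.19, adjusted p = 0.0059) with RYGB in diabetic rats and by 0.96 (SE 0.19, adjusted p = 0.0096) with diabetes in bypassed rats. The first and second of these share the DM+Sham samples. Its difference of 0.68 with RYGB in control rats passed at the 75th percentile but not under all 3 scalings. Gss and Ggt1, the brush-border enzyme that starts the breakdown of filtered glutathione, were called in no comparison.

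Of the 4 glutathione peroxidases, Gpx3 and Gpx1 fell in the comparisons that contain DM+RYGB, Gpx2 rose with bypass in control rats, and Gpx4 was not called. Gpx3, the secreted enzyme of the plasma, stood at 2.92, 2.81 and 2.81 in Control+Sham, at 3.21, 3.12 and 3.12 in DM+Sham, at 3.89, 3.69 and 3.76 in Control+RYGB and at 0.68 and 0.15 in DM+RYGB. Both DM+RYGB arrays were far below all others, and the other 3 groups did not overlap each other. Gpx3 fell by 2.75 (SE 0.18, adjusted p = 0.00033), 6.71-fold, with RYGB in diabetic rats and by 3.39 (SE 0.18, adjusted p = 0.00018), 10.5-fold, with diabetes in bypassed rats. These were the largest falls among the 36 genes in both comparisons. Gpx1, the cytosolic and mitochondrial enzyme, stood at 3.68, 3.59 and 3.7 in Control+Sham, at 4.0, 3.92 and 3.92 in DM+Sham, at 4.52, 4.35 and 4.37 in Control+RYGB and at 3.33 and 3.27 in DM+RYGB. It had the same order of groups as Gpx3 with a smaller span. Gpx1 fell by 0.66 (SE 0.11, adjusted p = 0.0042) with RYGB in diabetic rats and by 1.14 (SE 0.11, adjusted p = 0.00096) with diabetes in bypassed rats. Gpx2, the enzyme of epithelia, stood at 1.26, 1.17 and 1.11 in Control+Sham, at 1.43, 1.3 and 1.29 in DM+Sham, at 2.76, 2.6 and 2.68 in Control+RYGB and at 2.67 and 1.93 in DM+RYGB. It was higher in both bypass groups without overlap. Gpx2 rose by 1.52 (SE 0.21, adjusted p = 0.0064) with RYGB in control rats, where its second probe differed by 1.1, and its difference of 0.94 in diabetic rats (0.67 on the second probe) did not pass under all 3 scalings. For Gpx4, which reduces lipid peroxides, the sign of the difference with RYGB in diabetic rats turned with the scaling, from 0.1 at the 75th percentile to -0.51 under median and -0.59 under quantile scaling. Part of the proximal tubule markers fell in the same comparisons. With RYGB in diabetic rats 5 of 8 were lower (median log2 change -1.52), against 10.9% of all genes. Slc34a1 (0.45), Lrp2 (0.14) and Slc22a6 (-0.22) were not called there. With diabetes in bypassed rats 6 of 8 were lower (median -1.97), against 9.79% of all genes, and Slc34a1 (-0.58) and Lrp2 (-1.26) were not called. The part of these markers in the falls of Gpx3 and Gpx1 was not tested.

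**Figure D3:**
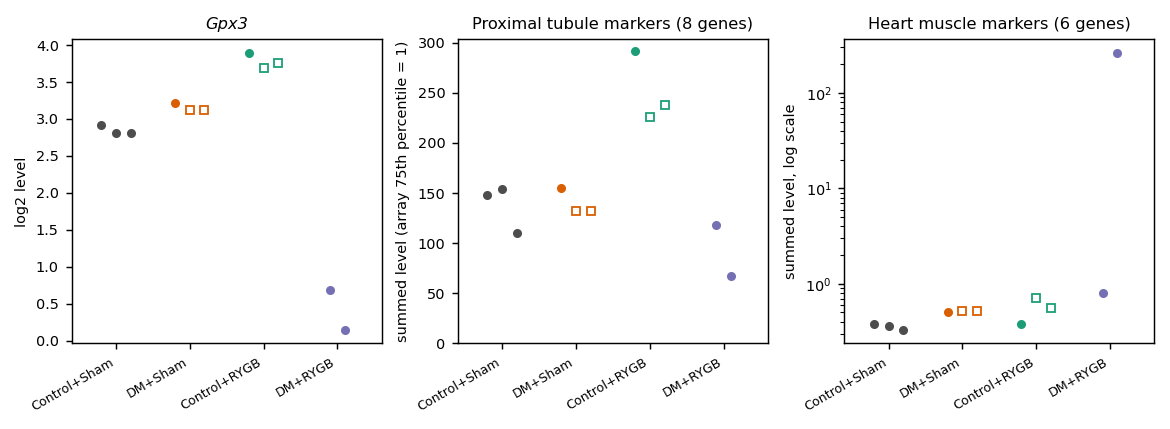
Left, log2 level of Gpx3 by array. Middle and right, the summed level of 8 proximal tubule markers (linear axis) and of 6 heart muscle markers (log axis), as signal over the array's 75th percentile, with open squares for the arrays averaged in pairs. Gpx3 is lowest on the 2 DM+RYGB arrays. The proximal tubule sum is lowest on DM+RYGB 2 (67.2) and on DM+RYGB 1 (118) lies within the range of Control+Sham (110 to 154), and the heart muscle sum is high on DM+RYGB 2.

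Superoxide dismutases turn superoxide into hydrogen peroxide, which catalase (Cat) removes. Sod3, the extracellular dismutase, was 1 of 2 genes called in all 5 comparisons. It stood at 2.83, 2.86 and 2.75 in Control+Sham, at 4.08, 3.98 and 3.97 in DM+Sham, at 4.15, 3.95 and 4.09 in Control+RYGB and at 3.12 and 2.62 in DM+RYGB. As with Gsr, the groups with diabetes or bypass alone were high and overlapped each other, and the other 2 groups were low and overlapped each other. Sod3 rose by 1.21 (SE 0.16, adjusted p = 0.0044) with diabetes in sham rats and by 1.27 (SE 0.16, adjusted p = 0.0047) with RYGB in control rats, both of which were measured against Control+Sham. It fell by 1.16 (SE 0.17, adjusted p = 0.0029) with RYGB in diabetic rats and by 1.22 (SE 0.17, adjusted p = 0.0032) with diabetes in bypassed rats. The cytosolic Sod1, the mitochondrial Sod2 and Cat were called in no comparison. Cat lay between 2.07 and 2.76 over all arrays, and the sign of Sod1 with RYGB in diabetic rats turned from 0.01 at the 75th percentile to -0.7 under quantile scaling.

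Of the 6 peroxiredoxins, which reduce peroxides with thioredoxin or glutathione, 3 (50%) were called in some comparison, against 39.5% of all genes. Prdx1, a cytosolic enzyme with the element in its promoter, stood at 2.71, 2.61 and 2.51 in Control+Sham, at 2.67, 2.79 and 2.79 in DM+Sham, at 2.93, 2.89 and 2.98 in Control+RYGB and at 2.03 and 1.91 in DM+RYGB. Both DM+RYGB arrays were below all others. Prdx1 fell by 0.76 (SE 0.12, adjusted p = 0.0031) with RYGB in diabetic rats and by 0.96 (SE 0.12, adjusted p = 0.0019) with diabetes in bypassed rats. Prdx5, found in mitochondria, peroxisomes and the cytosol, was highest in DM+Sham, at 3.83, 3.72 and 3.73, against 3.42, 3.32 and 3.29 in Control+Sham, 3.66, 3.59 and 3.7 in Control+RYGB and 3.26 and 3.42 in DM+RYGB. It fell by 0.43 (SE 0.11, adjusted p = 0.019) with RYGB in diabetic rats. Prdx4, the enzyme of the endoplasmic reticulum, was lowest in DM+Sham, at -1.73, -2.06 and -2.08, against -1.19, -1.24 and -1.21 in Control+Sham, -0.93, -1.13 and -1.1 in Control+RYGB and -1.07 and -1.38 in DM+RYGB. It fell by 0.69 (SE 0.15, adjusted p = 0.025) with diabetes in sham rats. Prdx2, Prdx3 and Prdx6 were called in no comparison. Prdx2 stood at 3.61 and 3.63 in DM+RYGB against 2.66 to 3.1 elsewhere, and its differences passed at the 75th percentile but not under all 3 scalings.

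In the thioredoxin system, the cytosolic reductase Txnrd1 and the inhibitor Txnip, which binds thioredoxin and is induced by glucose, went opposite ways in DM+RYGB. Txnrd1 stood at 0.07, -0.12 and 0.02 in Control+Sham, at 0.46, 0.43 and 0.45 in DM+Sham, at 0.67, 0.64 and 0.64 in Control+RYGB and at -0.52 and -0.51 in DM+RYGB. On this gene's brightest probe the 4 groups did not overlap, and DM+RYGB was the lowest. Txnrd1 fell by 0.97 (SE 0.11, adjusted p = 0.0012) with RYGB in diabetic rats and by 1.17 (SE 0.11, adjusted p = 0.00078) with diabetes in bypassed rats. Its second probe differed by -0.3 and -0.82, the same directions with smaller sizes. On that probe the sham groups overlapped (-1.53 to -1.5 in Control+Sham, -1.65 to -1.52 in DM+Sham). Its difference with diabetes in sham rats was -0.06, against 0.46 (not called) on the brightest probe. Txnip stood at 0.45, 0.58 and 1.26 in Control+Sham, at 1.58, 0.18 and 0.22 in DM+Sham, at 2.89, 2.87 and 2.83 in Control+RYGB and at 3.2 and 3.26 in DM+RYGB. All 5 bypass arrays were above all 6 sham arrays, and the sham groups overlapped. Txnip rose by 2.34 (SE 0.45, adjusted p = 0.0066), 5.08-fold, with RYGB in diabetic rats and by 2.1 (SE 0.42, adjusted p = 0.017), 4.3-fold, with RYGB in control rats. The mitochondrial reductase Txnrd2 lay between -1.56 and -1.13 on all arrays and was called in no comparison.

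Glutathione transferases join glutathione to electrophiles, and 5 of the 6 measured here (83.3%) were called in some comparison, against 39.5% of all genes. The genes of the mu class, Gstm1 and Gstm2 among them, are close in sequence, and their probes may share signal. Gstm1 (signals of 84.3 to 558) stood at -4.13, -4.19 and -4.21 in Control+Sham, at -2.97, -2.92 and -2.95 in DM+Sham, at -2.64, -2.76 and -2.68 in Control+RYGB and at -3.7 and -3.47 in DM+RYGB. The 4 groups did not overlap. Gstm1 rose by 1.22 (SE 0.11, adjusted p = 0.00094) with diabetes in sham rats and by 1.5 (SE 0.11, adjusted p = 0.00073) with RYGB in control rats. It fell by 0.63 (SE 0.12, adjusted p = 0.0058) with RYGB in diabetic rats and by 0.91 (SE 0.12, adjusted p = 0.0023) with diabetes in bypassed rats, but with normexp background correction both of these changed sign, to 0.41 (adjusted p = 0.43) and 0.13 (adjusted p = 0.81). Gstm2 stood at -3.31, -3.24 and -3.21 in Control+Sham, at -2.04, -2.09 and -2.11 in DM+Sham, at -3.02, -3.08 and -3.12 in Control+RYGB and at -2.49 and -2.1 in DM+RYGB. It was high in both diabetic groups and rose by 1.18 (SE 0.13, adjusted p = 0.0025) with diabetes in sham rats, whereas its difference of 0.76 in bypassed rats did not pass under all 3 scalings. Gstp1, the pi-class enzyme whose promoter is shown above, stood at 1.44, 1.27 and 1.4 in Control+Sham, at 0.31, 0.29 and 0.27 in DM+Sham, at 0.53, 0.51 and 0.55 in Control+RYGB and at 1.43 and 0.98 in DM+RYGB. In contrast to Sod3, it was high in the groups with neither or both of diabetes and bypass. Gstp1 fell by 1.08 (SE 0.15, adjusted p = 0.005) with diabetes in sham rats and by 0.84 (SE 0.15, adjusted p = 0.012) with RYGB in control rats. In the same 2 comparisons 5 of 6 urothelial markers were lower (median log2 change -2.76 and -3.04), and their part in the falls of Gstp1 was not tested. Gstt1, the theta-class enzyme, stood at -1.7 and -2.4 in DM+RYGB against -1.5 to -1.13 elsewhere, and fell by 0.86 (SE 0.23, adjusted p = 0.03) with diabetes in bypassed rats. The value rests on which DM+RYGB array is used, at -0.51 without DM+RYGB 2, the array with heart muscle RNA, and -1.21 without DM+RYGB 1, both called. Mgst1, the membrane-bound enzyme, stood at -1.0, -1.16 and -1.1 in Control+Sham, at -1.0, -0.94 and -0.98 in DM+Sham, at -0.93, -0.96 and -0.93 in Control+RYGB and at -1.7 and -1.96 in DM+RYGB. It was low in DM+RYGB alone and fell by 0.85 (SE 0.13, adjusted p = 0.0028) with RYGB in diabetic rats and by 0.89 (SE 0.13, adjusted p = 0.0032) with diabetes in bypassed rats. Gstk1, the peroxisomal and mitochondrial enzyme, was called in no comparison.

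The interaction asks whether RYGB changed a gene differently in diabetic and in control rats. It was called for 10 genes. Gpx3 differed most, by -3.71 (SE 0.25, adjusted p = 0.00047), with -2.75 in diabetic and 0.96 (not called) in control rats. Sod3 followed at -2.43 (SE 0.24, adjusted p = 0.0015) and Gstm1 at -2.13 (SE 0.16, adjusted p = 0.00068), each higher with RYGB in control rats and lower in diabetic rats. With normexp correction the interaction of Gstm1 was -0.75 (adjusted p = 0.32), and its change in diabetic rats was 0.41. Gsr (-1.67), Txnrd1 (-1.63), Gpx1 (-1.45), Prdx1 (-1.08) and Mgst1 (-1.0) had the same sign of interaction. As for Gpx3, their own change in control rats was not called. The second probe of Txnrd1 changed by -0.3 in diabetic and 0.47 in control rats, and its interaction was not fitted. Gstp1 differed by 1.75 (SE 0.22, adjusted p = 0.0033), lower with RYGB in control rats and 0.91 (not called) in diabetic rats. Nqo1 differed by 1.53 (SE 0.21, adjusted p = 0.0044), with -0.09 in control rats. For Txnip and Gclm, which were called higher with RYGB in both kinds of rats, the interaction was not called, at 0.24 (SE 0.62) and 0.32 (SE 0.72).

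**Figure D4:**
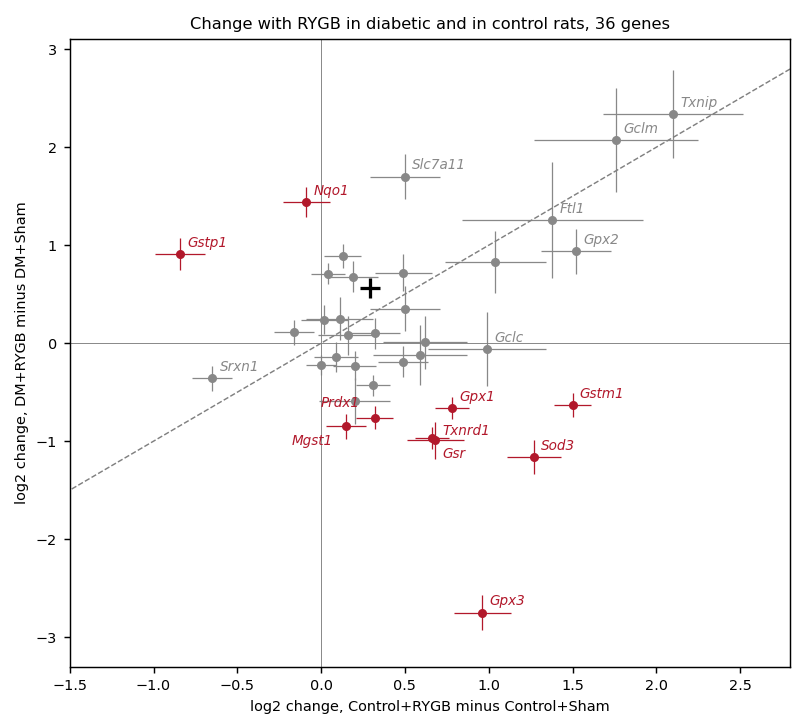
Log2 change with RYGB in control rats (horizontal axis) against that in diabetic rats (vertical axis) for the 36 genes, with bars of 1 SE. Red genes were called in the interaction, the dashed line marks equal change, and the cross marks the median of all genes. The 8 genes called lower in the interaction, Gpx3, Sod3 and Gstm1 among them, lie to the right of 0 and below it, as do some uncalled genes. Nqo1 and Gstp1 lie above the dashed line, and Txnip and Gclm close to it.

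For the 7 calls of diabetes in sham rats the arrays of the 2 groups did not overlap, so the direction within any scan day was fixed. Days 2 and 3 held 1 array of each group, and within them the sizes were 0.43 to 1.22 and 0.68 to 1.39. Sod3, Gstp1 and Gstm1 were called whichever sample was left out. Gsr was lost without any of the Control+Sham arrays, DM+Sham 1, DM+Sham 2 and 3 together, Control+RYGB 1 or Control+RYGB 2 and 3 (0.7 to 0.74, largest adjusted p over the 3 scalings 0.086 to 0.21). Prdx4 was lost without the same samples except DM+Sham 1 (-0.7 to -0.52, 0.051 to 0.16), Slc7a11 without the same samples as Gsr (-1.06 to -0.71, 0.053 to 0.2) and Gstm2 without DM+Sham 2 and 3 (1.21, 0.064). The count was 3 without DM+Sham 2 and 3 and 4 without any 1 of the other samples just named but DM+Sham 1, where it was 5. With normexp correction, or with scan day as a block, limma called 0 of the 36 genes, where 91 and 135 of all 25250 genes were called. Of the 36, 9 and 12 had an unadjusted p under 0.05, and the share of all genes under it was not counted. The scan-day block leaves 2 residual degrees of freedom and counts DM+Sham 2 and 3, scanned on different days, as 2 samples.

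For the 12 calls of RYGB in diabetic rats the groups did not overlap either, so the direction within a scan day was fixed. Day 4, the only day with both groups, held 1 array of each (sizes 0.46 to 3.08). DM+RYGB 2 had a barcode value in the file headers that no other array had, whereas DM+RYGB 1 shared that of the sham arrays. All 12 were also called without DM+RYGB 2, the array with heart muscle RNA. DM+RYGB then held 1 array, which was assumed to vary like the other groups, as wherever a group was left with 1 sample. In that fit Gpx3 changed by -2.48, Txnip by 2.32 and Nqo1 by 1.56. Podocyte markers were higher in this comparison, 2 of 2 (median log2 change 1.94), and their part was not tested. Gclm was lost without Control+Sham 1, Control+Sham 2, Control+RYGB 1, Control+RYGB 2 and 3, DM+Sham 2 and 3 or DM+RYGB 1 (1.45 to 2.07, largest adjusted p 0.055 to 0.2), and Prdx5 without DM+Sham 1 or DM+Sham 2 and 3 (-0.38 and -0.48, 0.092 and 0.061). Calls at the 75th percentile alone numbered 10 higher and 9 lower, at the median 4 and 17, and under quantile scaling 7 and 16. Normexp correction kept 5 of the calls, the falls of Gpx1, Gpx3, Sod3, Prdx1 and Txnrd1, and scan day as a block kept 2, Gpx3 and Txnrd1.

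For RYGB in control rats no scan day held both groups. All Control+RYGB arrays shared a barcode value in the file headers that no other array had, so group and barcode cannot be told apart. Gstm1 alone was called whichever sample was left out. Without Control+RYGB 1, or without Control+RYGB 2 and 3, Gstm1 was the only 1 of the 7 called, and the other 6 kept their direction (Gpx2 at 1.46 and 1.58, Sod3 at 1.2 and 1.34) with largest adjusted p of 0.07 to 0.21. The count was 3 without Control+Sham 1. Txnip was lost without Control+Sham 1 or 2 too (1.94 and 2.01, 0.081 and 0.078), Srxn1 and Gstp1 without Control+Sham 1 (-0.63 and -0.81, 0.056 and 0.05), and Gclm without either of these, DM+Sham 2, Control+RYGB 2 or either DM+RYGB array (1.57 to 1.76, 0.05 to 0.14). Calls at the 75th percentile alone numbered 10 higher and 2 lower, at the median 7 and 2, and under quantile scaling 6 and 2. Over all genes they numbered 5453 and 1390, 2651 and 3569, and 1996 and 2974 in the same order. Normexp correction kept the call of Gpx2 alone (1.57, adjusted p = 0.049). The scan-day block called 0 of the 36 genes and 0 of all genes. It gave 13 of the 36 an unadjusted p under 0.05, and the share of all genes under it was not counted. Liver markers moved in the same comparison, 3 of 4 higher (median log2 change 2.06), and their part was not tested.

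For the 11 calls of diabetes in bypassed rats the groups did not overlap, so their direction within a scan day was fixed too. Within days 4 and 5 Gpx3 differed by -3.21 and -3.57, Sod3 by -1.04 and -1.4, and Nqo1 by 1.32 and 1.42. No DM+RYGB array shared the barcode value of the Control+RYGB arrays, so group and barcode cannot be told apart here or in the interaction. The count was 7 without Control+RYGB 1 and 7 without Control+RYGB 2 and 3, when Keap1 (0.92 and 0.84, largest adjusted p 0.1 and 0.13), Gsr (-0.91 and -1.01, 0.064 and 0.05), Gpx1 (-1.06 and -1.22, 0.058 and 0.079) and Gstt1 (-0.8 and -0.92, 0.14 and 0.1) were lost. Gstt1 was lost without Control+Sham 1, DM+Sham 1 or DM+Sham 2 and 3 as well (-0.86 each, 0.05 to 0.058). Normexp correction kept the falls of Gpx1, Gpx3, Sod3, Prdx1 and Txnrd1, and scan day as a block kept Nqo1, Gpx3, Txnrd1, Gstm1 and Mgst1. Calls numbered 5 higher and 9 lower at the 75th percentile alone, 2 and 15 at the median and 4 and 10 under quantile scaling. Over all genes the split turned too, with 5067 and 2678, 2036 and 4820, and 3069 and 3632 in the same order. Podocyte markers were higher here, 2 of 2, and liver markers lower, 3 of 4 (medians 1.44 and -2.34), and their part was not tested.

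In the interaction, 8 of the 10 genes were called whichever sample was left out. Gpx1 was lost without Control+Sham 1, DM+Sham 2 and 3, Control+RYGB 1 or Control+RYGB 2 and 3 (-1.53 to -1.37, largest adjusted p 0.06 to 0.085) and Prdx1 without Control+RYGB 2 and 3 (-1.08, 0.058). Normexp correction kept Gpx1, Gpx3, Sod3, Prdx1 and Txnrd1, and scan day as a block kept Gpx3 alone (-3.75, adjusted p just under the threshold). Calls numbered 5 higher and 9 lower at the 75th percentile alone, 2 and 11 at the median and 4 and 8 under quantile scaling. Over all genes they numbered 3393 and 2196, 1935 and 3493, and 2344 and 3075 in the same order. Markers moved in the interaction too: 5 of 8 proximal tubule markers were lower (median -2.17), 5 of 6 urothelial markers higher (median 4.0) and 2 of 2 podocyte markers higher (median 1.66), and their part was not tested.

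A further 75 genes of glutathione and thioredoxin metabolism and of the Nrf2 pathway were listed, of which 72 were measured. Diabetes in sham rats called 6 of them higher and 5 lower (15.3%, against 12.3% of all genes), led by the transferases Gstm7 (1.77) and Gsto2 (0.85) among the higher and Gsta6 (-1.1) and Mgst2 (-2.85) among the lower. RYGB in diabetic rats called 2 higher, the transferase Gstm5 (1.45) and the carbonyl reductase Cbr3 (1.29), and 14 lower, led by Abcc2 (-3.18), the pump that exports glutathione conjugates, and glutaredoxin Glrx (-1.53), in all 22.2% against 21.4% of all genes. RYGB in control rats called 5 higher and 6 lower (15.3%, against 12.4%), led by Gstt2 (0.85) and Gstm7 (0.96), and by the aldo-keto reductase Akr1b8 (-1.92) and Gstm5 (-0.54). Diabetes in bypassed rats called 7 higher and 19 lower (36.1%, against 17.2%), led by Gstm5 (1.5) and Cbr1 (1.19), and by Abcc2 (-3.86) and Gstt2 (-0.95). The median log2 changes of the 72 genes were -0.09, 0.07, 0.28 and -0.29 in this order, against 0.03, 0.57, 0.29 and 0.27 over all genes.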

How the data were processed

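Cy3-labelled RNA from 11 renal cortex samples was hybridised to Agilent Rat 4 x 44K arrays, 1 sample per array. Per the file headers, the authors read spot intensities with Feature Extraction 11.0.1.1, which removes background but does not scale arrays to each other. The deposited value table holds log2 values with equal medians (7.0652) and correlations of 0.9887 to 0.9969 with the scanner values on the log2 scale, and it served as an alternative.

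Control spots (1377 of 44254) were left out, outlier spots were not used unless all spots of a probe were marked, and spots of a probe were averaged. Of 30367 probes, 17997 carried 1 RefSeq symbol, and the rest were tested but not named. A gene was tested where its probe passed the software's background test on 2 or more arrays, and the brightest such probe stood for it. The 36 genes had 41 probes. Group means of 9 samples were fitted with limma 3.58.1 (R 4.3.3), all 4 groups in 1 model with 5 residual degrees of freedom, and all p-values for genes are limma's with Benjamini-Hochberg adjustment. The fit was tested on simulated data.

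The genes, lists, 3-scaling call and merging of arrays were chosen with earlier results of these data known. The check of near-identity first used probes with 1 spot and merged DM+Sham 2 and 3 alone. It was changed, after that outcome was seen, to repeated probes, which merges Control+RYGB 2 and 3 too. The percentile was likewise moved from probes to spots. Both first forms are given as alternatives chosen after seeing the data. All 36 genes could be named; those called were named with values by array, for the pathway list the 2 with the smallest adjusted p in each direction. Normexp used the median spot signal, as these files list no mean signal. Scan days come from the file headers. The alternatives were 29 settings in all, 13 of which leave out an array or a pair.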

Additional observations from a re-analysis of the deposited data

Results flagged for a closer look

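The effect of RYGB differed between diabetic and control rats for 10 of the 36 genes, by limma's interaction term (log2, diabetic minus control, adjusted p under 0.05 under all 3 scalings), where 14.6% of all genes tested were called. Nqo1 (1.53) and Gstp1 (1.75) had a positive difference. Gsr (-1.67), Gpx1 (-1.45), Gpx3 (-3.71), Sod3 (-2.43), Prdx1 (-1.08), Txnrd1 (-1.63), Gstm1 (-2.13) and Mgst1 (-1.0) had a negative one. No group held more than 3 samples, so no test for a single outlying sample was run.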

How the results depend on the processing

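The 47 calls on single genes were recomputed under 29 settings, except that the 10 calls of the interaction, which needs all groups, have no value with only the groups compared. Of these 1353 values 1171 were called in the same direction, 180 kept their direction without the call and 2 changed sign, both for Gstm1 with normexp correction (0.41 for RYGB in diabetic rats and 0.13 for diabetes in bypassed rats). A call asks for all 3 scalings, so the 141 values with 1 scaling alone kept the call by definition. All 47 calls were also kept with the percentile over probes and with robust and trended variances. They were kept too with 11 separate arrays and with Control+RYGB 2 and 3 kept apart. Both of these settings count near-identical arrays as separate samples, so keeping the calls there is no independent check. With 11 separate arrays the calls over all genes for diabetes in sham rats rose from 3109 to 6703. Normexp correction kept 16 of the calls, scan day as a block kept 8, and 5 were kept by both. The scan-day block counted DM+Sham 2 and 3, scanned on different days, as 2 samples, although they differed less than repeated spots do. The cause was not tested, except that the scan-day block leaves 2 residual degrees of freedom and the 2-fold threshold asks for a larger change.

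Counts of the 36 genes called changed by over 1.5 times as follows. For diabetes in sham rats (7) they were 0 with normexp, 0 with scan day, 11 with separate arrays and 4 with a 2-fold threshold, and 3 to 8 with an array or pair left out. For RYGB in diabetic rats (12) they were 19, 21 and 23 with the 75th percentile, median and quantile scaling alone, 23 with the deposited table, 5 with normexp, 2 with scan day, 4 with only the groups compared and 4 at 2-fold (10 to 16 left out). For RYGB in control rats (7) they were 12 with the 75th percentile alone, 1 with normexp, 0 with scan day and 4 at 2-fold (1 to 8 left out). For diabetes in bypassed rats (11) they were 17 with the median alone, 5 with normexp, 5 with scan day, 2 with only the groups compared and 4 at 2-fold (7 to 15 left out). For the interaction (10) they were 5 with normexp and 1 with scan day (8 to 15 left out). Counts over all genes, in the same order, were 3109, 5393, 3137, 4353 and 3676, and ran from 91 to 6703, 1292 to 13343, 0 to 6843, 1082 to 7745 and 72 to 6343.

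Uncalled differences with RYGB in diabetic rats that passed with the sign turned were Gpx4 (-0.51 median, -0.59 quantile, -0.69 deposited table), Sod1 (-0.7 quantile, -0.81 deposited table) and Prdx6 (-0.5 median). Deviations of same-numbered samples of different groups correlated at -0.38 to 0.453 over 15 pairs. Deviations from the mean of so few arrays depend on each other, and near-identical arrays enter more than once. Whether the numbers pair the samples therefore cannot be told from them. With the replicate number as a block on 11 separate arrays, 10, 16, 9, 12 and 13 of the genes were called in the 5 comparisons, and all 47 calls were kept. For diabetes in sham rats, more of all genes were called there too than the 3109 of the main fit. This block also counts near-identical arrays as separate samples and rests on numbers not shown to pair them. Its counts are therefore no independent check of the calls. The pairs of samples per group, and dim probes such as those of Slc7a11, limit what can be detected.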
